A study of Homo sapiens with 60 samples.

Results

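Sagunja-tang, a multi-herb formula, was compared between its highest and its lowest dose in HepG2 cells, and the members of the comparison were the 3 libraries labelled 500 µg/mL and the 3 labelled 20 µg/mL. These were 6 of the 60 libraries of the series. HepG2 is a human hepatocellular carcinoma line that keeps many functions of hepatocytes, so every value is from cells of 1 tumour line. All groups were treated for 24 h with a water extract, all carried the same batch name in their titles, and the codes of all 6 libraries, like those of the second formula Samul-tang, begin with 7. What that number stands for is not stated, and it is called the set here. The comparison is made without the vehicle libraries (dimethyl sulfoxide, given as 0.1% with the samples and as 2% with the design). These and the other sets entered the model through the spread between replicates, which is estimated over all 57 libraries. The filter on low counts and the scaling between libraries were also run on all 57. The 3 libraries of Sagunja-tang at 100 µg/mL show the dose between. The 3 libraries of Samul-tang at 500 µg/mL and the 3 at 20 µg/mL, from the same set, serve to show where Sagunja-tang differs from another formula. It is not stated whether replicates came from separate cultures. If they did not, the p-values reflect technical spread between libraries alone.

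Sagunja-tang is traditionally prepared from ginseng, Atractylodes rhizome, Poria and licorice, and Samul-tang from Rehmannia, Angelica, Cnidium and peony roots. Hepatocytes meet plant compounds with several sensors. The aryl hydrocarbon receptor (AHR) binds planar aromatic ligands and switches on cytochrome P450 genes of the CYP1 family, and the transcription factor NRF2, released from KEAP1 by electrophiles and oxidants, drives genes of quinone reduction, glutathione and thioredoxin. Metallothioneins are small cysteine-rich proteins that bind zinc and copper, and their genes are switched on by MTF1 when free zinc rises. Hepcidin, the product of HAMP, is the hormone with which the liver limits iron uptake, and the BMP-SMAD pathway sets its transcription. The liver also makes glucose, fatty acids, cholesterol and most plasma proteins.

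The 3 libraries at 500 µg/mL held 23.8 M to 34.4 M counts, and the 3 at 20 µg/mL held 25.3 M to 28.8 M. Levels below are CPM, counts scaled to the same library size, with TMM factors that ran from 0.959 to 1.05 at 500 µg/mL and from 1.01 to 1.04 at 20 µg/mL. Transcripts of the mitochondrial genome took 18.8%, 13% and 15.9% of the counts of replicates 1, 2 and 3 at 500 µg/mL, and 14.6% to 16.9% at 20 µg/mL. Replicates 1 and 2 at 500 µg/mL were thus the highest and the lowest of the 6 in this share. Their part in the results was measured by leaving each out. The chi-square of counts per degree of freedom between pairs of libraries was larger at 500 µg/mL, at 42.9, 11.0 and 16.0. At 20 µg/mL it was 3.86, 6.67 and 7.30, and the pooled spread does not allow for such a difference between groups. It was computed on counts scaled by their total alone, without TMM factors and with the mitochondrial genes included. The difference in mitochondrial share is thus part of it, and how large a part was not measured. All 10 defining markers of the line were detected, among them HNF4A, AFP and APOB. Of 20 markers of other cell types, 6 were at 0 in all 6 libraries (PTPRC, MS4A1, COL1A2, KRT5, KRT14 and HBB) and 13 were under 1 CPM in all, before TMM scaling. The summed level of the 9 that were tested, nearly all of it LYZ, was 1454 to 1637 CPM at 500 µg/mL and 1519 to 1586 CPM at 20 µg/mL.

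Of 16167 genes tested, 807 differed between 500 and 20 µg/mL at an adjusted p under 0.05, in edgeR's quasi-likelihood test with Benjamini-Hochberg adjustment. This was 4.99% of the genes, with 436 higher at 500 µg/mL (2.70%) and 371 lower (2.29%). The count fell to 306 with only the 18 libraries of the set in the fit, to 363 with only the compared groups, and to 433 to 762 with 1 library left out. A gene is called below where it passed this test, and changes are log2 fold changes of 500 over 20 µg/mL ± SE. Most changes were small. The median size among called genes was 0.25 on the log2 scale, 438 of them changed less than 1.2-fold and 63 changed at least 1.5-fold. Only 19 changed at least 2-fold, and 15 of these had a mean under 2 CPM. The other 4 were CYP1A1, ALDH3A1 and AKR1B10, which were higher, and MT1F, which was lower. Over all genes the median change was -0.001, with an interquartile range of -0.11 to 0.10. The 3 libraries at 500 µg/mL lay all above or all below the 3 at 20 µg/mL for 23.5% of the genes tested. Among the 807 called genes this held for 788. The rule that picks the 24 genes with the largest changes requires it, so for these genes it adds no support.

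**Figure D1:**
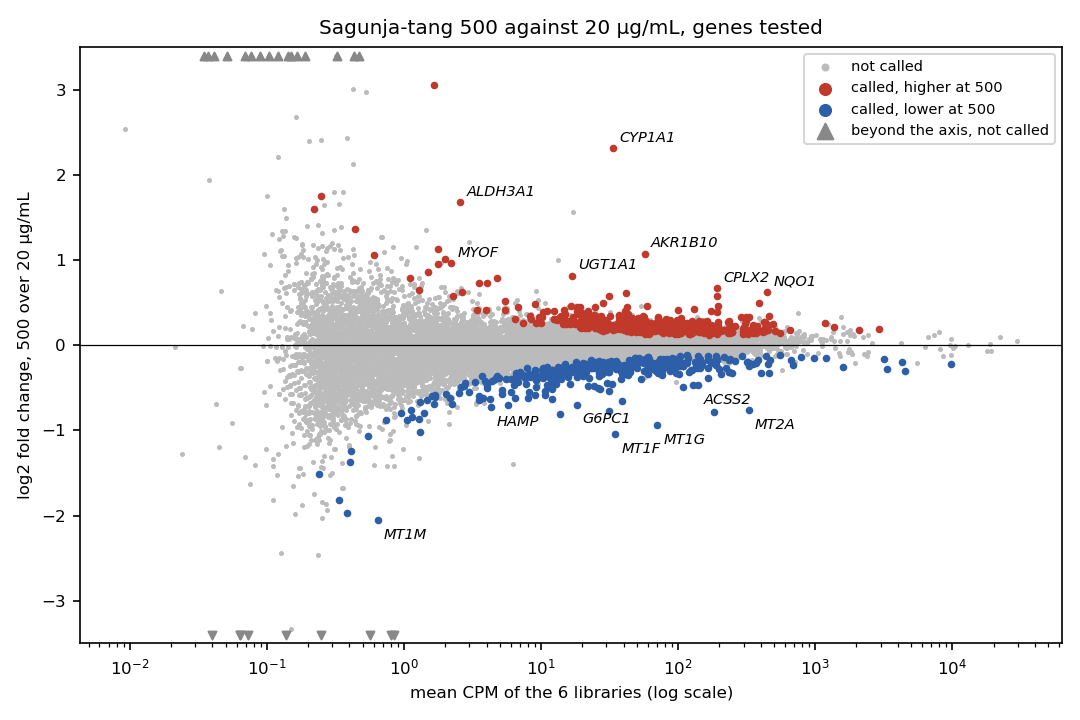
Log2 fold change of Sagunja-tang 500 over 20 µg/mL (vertical axis) against the mean CPM of the 6 libraries (horizontal axis, log scale) for the 16167 genes tested, with 436 called higher in red and 371 called lower in blue. Most called genes lie close to 0, and triangles at the edges stand for 25 genes beyond 3.5 on the log2 scale, none of them called.

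CYP1A1, the cytochrome P450 that oxidises polycyclic aromatic compounds and is the classic target of AHR, showed the largest rise among genes of at least 2 CPM. It is encoded on the minus strand at chr15:74719542-74725610 of GRCh38 (ENSG00000140465). Its level was 53.7, 59.9 and 54.3 CPM at 500 µg/mL, against 11.3, 11.1 and 11.4 CPM at 20 µg/mL. The lowest library at 500 µg/mL was thus far above the highest at 20 µg/mL. The log2 fold change was 2.31 ± 0.095 (adjusted p = 4.96e-24), a 4.96-fold difference. ALDH3A1, an aldehyde dehydrogenase that AHR also switches on, stood at 4.12, 3.88 and 3.78 CPM at 500 µg/mL and at 0.932, 1.18 and 1.54 CPM at 20 µg/mL. It rose by 1.68 ± 0.19 (adjusted p = 2.75e-08), and the libraries did not overlap. The third called member of the AHR list was NQO1, which NRF2 drives as well. Of 7 members tested, 3 were called higher, where 2.70% of all genes were, and none lower, and the median change was 0.0009. The other 4 were the receptor AHR itself (0.00), its partner ARNT (-0.18), the repressor AHRR (-0.12) and TIPARP (-0.01), a feedback inhibitor of the receptor. AHRR is a target of the receptor as well, and it did not pass the test.

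The promoter of CYP1A1, from 250 bases before to 50 after its RefSeq start (GRCh38.p14, chr15:74725479-74725778, minus strand), is shown because this gene had the largest called change among genes of at least 2 CPM. Capitals mark the core of the xenobiotic response element, GCGTG, to which the receptor and ARNT bind.
CYP1A1: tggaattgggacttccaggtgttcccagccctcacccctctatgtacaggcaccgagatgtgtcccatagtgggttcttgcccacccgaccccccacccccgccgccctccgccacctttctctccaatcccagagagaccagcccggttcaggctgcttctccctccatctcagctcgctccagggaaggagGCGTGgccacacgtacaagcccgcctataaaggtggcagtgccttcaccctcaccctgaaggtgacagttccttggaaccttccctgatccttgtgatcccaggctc
The core was searched on both strands and occurred 1 time in this window, 57 bases before the start. It is common, since 36.5% of 35116 promoters of the same length hold it, and among the AHR list 5 of 6 promoters with a RefSeq entry did. A match of letters is a description and shows no binding.

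Genes of oxidant defence were higher at 500 µg/mL. Of 23 members of the NRF2 list that were tested, 15 were called higher and none lower, and all 23 had a positive change, against 8007 positive and 8140 negative changes over all genes. The median of the list was 0.26, and that over all genes was -0.001. Under the alternatives tried, 12 to 15 members were called, and over all genes 2.70% were called higher. The largest change was that of AKR1B10, an aldo-keto reductase that reduces aldehydes and retinal (ENSG00000198074, chr7:134527592-134541408, plus strand). It had 72.7, 76.3 and 82.4 CPM at 500 µg/mL and 36.8, 35.8 and 37.2 CPM at 20 µg/mL, a rise of 1.08 ± 0.067 (adjusted p = 1.22e-16). Neither range touched the other.

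NQO1, the quinone reductase (ENSG00000181019, chr16:69706996-69726951, minus strand), was measured at 514, 579 and 527 CPM at 500 µg/mL, against 354, 345 and 354 CPM at 20 µg/mL. It rose by 0.62 ± 0.050 (adjusted p = 1.02e-12). AKR1C2, a related reductase that acts on steroids, had 228, 238 and 225 CPM at 500 µg/mL and 152, 154 and 157 CPM at 20 µg/mL, and rose by 0.58 ± 0.058. Its sequence is close to that of AKR1C1 (0.33, called) and AKR1C3 (0.04, not called), so reads may have been split between them. SRXN1, sulfiredoxin, which restores oxidised peroxiredoxins, stood at 112, 116 and 116 CPM at 500 µg/mL and at 85.4, 84.1 and 88.2 CPM at 20 µg/mL, a rise of 0.42 ± 0.055. In each of these genes every library at 500 µg/mL was above every library at 20 µg/mL.

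Other members were called as well. The glutathione enzymes GCLM (0.45), GCLC (0.20) and GSR (0.26), thioredoxin TXN (0.32) and its reductase TXNRD1 (0.40), and the exporters ABCC3 (0.40) and ABCC2 (0.17) were higher at 500 µg/mL. So were TKT (0.29) and TALDO1 (0.21) of the pentose phosphate pathway, and OSGIN1 (0.28), an oxidative stress-induced growth inhibitor. Members not called were heme oxygenase HMOX1 (0.03), the cystine transporter SLC7A11 (0.07), PGD (0.09), CES1 (0.04), NRF2's own gene NFE2L2 (0.07), its partner MAFG (0.11) and its inhibitor KEAP1 (0.12). The core of the antioxidant response element, TGACNNNGC on either strand, was found in 3 of 17 matched promoters of the list (PGD, GCLM and TXNRD1), and 13.3% of all 35116 hold it.

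Among 17 tested genes of drug metabolism under the receptors PXR and CAR, 3 were called higher and 2 lower, with a median of -0.03. Over all genes 2.70% were called higher and 2.29% lower. UGT1A1, which conjugates bilirubin, had 23.6, 20.8 and 19.9 CPM at 500 µg/mL and 12.2, 11.8 and 12.4 CPM at 20 µg/mL. It rose by 0.82 ± 0.081 (adjusted p = 6.9e-10), and the libraries were apart. Its last exons are shared by all genes of the UGT1A locus, so its reads may be divided among them. The drug exporters ABCB1 (0.20) and ABCG2 (0.30) were also higher. CYP3A7, the fetal form of the CYP3A enzymes (-0.46), and the sulfotransferase SULT2A1 (-0.23) were lower. CYP3A4, the main target of PXR in adult liver, had a change of 0.18 and was not called.

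**Figure D2:**
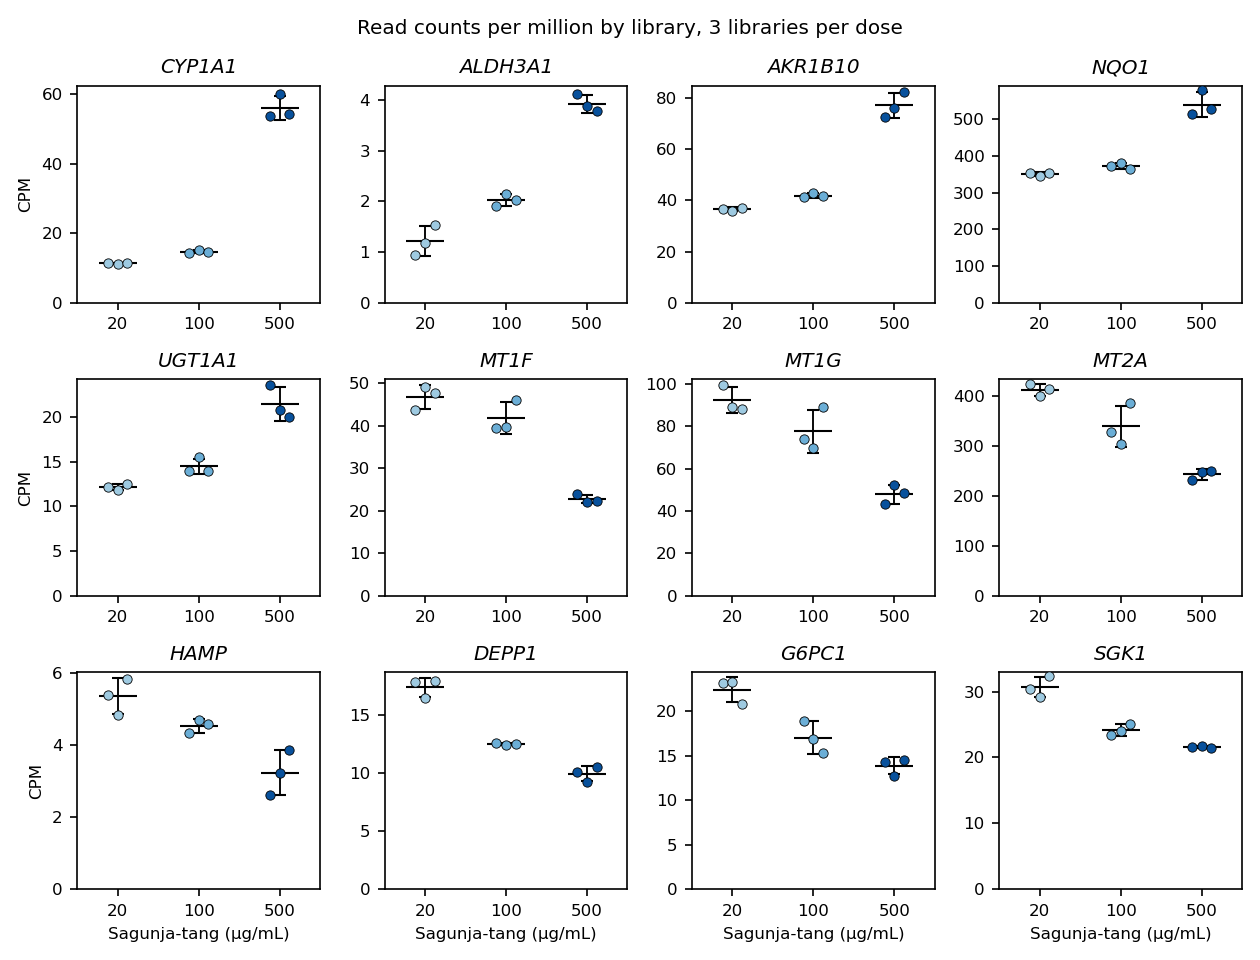
Level in CPM (vertical axes, from 0) of 12 genes in each of the 3 libraries at 20, 100 and 500 µg/mL of Sagunja-tang (horizontal axes), with bars for the mean ± SD. At 500 µg/mL the points of CYP1A1, ALDH3A1, AKR1B10, NQO1 and UGT1A1 lie above those at 20 µg/mL, and the points of MT1F, MT1G, MT2A, HAMP, DEPP1, G6PC1 and SGK1 lie below them.

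Metallothioneins were lower at 500 µg/mL. Of 7 metallothionein genes tested, 6 fell, and the list with their zinc regulators and transporters had 8 of 11 called lower, none higher, and a median of -0.76. Under the alternatives 6 to 8 members were called, and over all genes 2.29% were called lower. MT1F (ENSG00000198417, chr16:56657694-56660698, plus strand) had 24.0, 22.1 and 22.4 CPM at 500 µg/mL and 43.8, 49.1 and 47.6 CPM at 20 µg/mL. The fall was 1.04 log2 units (SE 0.11, adjusted p = 5.34e-09), to 0.486 of its level at 20 µg/mL. MT1G stood at 43.3, 52.1 and 48.5 CPM at 500 µg/mL, against 99.3, 89.2 and 88.3 CPM at 20 µg/mL, and fell by 0.94 (SE 0.11). MT2A, the main isoform in many tissues, had 231, 248 and 249 CPM at 500 µg/mL and 423, 399 and 413 CPM at 20 µg/mL, and fell by 0.76 (SE 0.11). No library at 500 µg/mL reached the lowest at 20 µg/mL in any of these genes.

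MT1E (-0.78 ± 0.098) and MT1X (-0.77 ± 0.10) fell as well. MT1M had under 2 CPM in every library, with 0.0815, 0.277 and 0.374 CPM at 500 µg/mL and 1.07, 1.06 and 0.991 CPM at 20 µg/mL, and its fall of 2.05 (SE 0.39) rests on few reads. MT1A had a change of -0.43 ± 0.22 and was not called. These genes lie side by side on chromosome 16 and are close in sequence, so the assignment of reads among them is uncertain. MTF1, their zinc sensor, was at 18.7 to 19.9 CPM at 500 µg/mL and 19 to 19.7 CPM at 20 µg/mL and did not pass the test (0.01 ± 0.069). SLC30A1, the zinc exporter that MTF1 also drives, fell by 0.26, and its call was lost without replicate 3 at 500 µg/mL (highest adjusted p over the alternatives 0.108). The zinc importer SLC39A14 fell by 0.14, a call lost in 4 of 6 fits that leave out 1 library, and SLC30A10, an exporter of manganese, had -0.07 and was not called.

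The promoters of MT1X (GRCh38.p14, chr16:56682220-56682519, plus strand) and MT2A (chr16:56608334-56608633, plus strand) are shown because both genes fell together. Capitals mark the core of the metal response element bound by MTF1, searched as TGCACNC or TGCGCNC on both strands, and no matches overlapped.
MT1X: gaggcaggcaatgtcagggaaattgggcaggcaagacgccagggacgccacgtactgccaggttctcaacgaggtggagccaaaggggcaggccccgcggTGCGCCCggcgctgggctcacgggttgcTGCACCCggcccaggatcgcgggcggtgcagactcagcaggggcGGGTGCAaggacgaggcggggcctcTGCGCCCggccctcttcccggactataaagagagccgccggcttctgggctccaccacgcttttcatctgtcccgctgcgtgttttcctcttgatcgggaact
MT2A: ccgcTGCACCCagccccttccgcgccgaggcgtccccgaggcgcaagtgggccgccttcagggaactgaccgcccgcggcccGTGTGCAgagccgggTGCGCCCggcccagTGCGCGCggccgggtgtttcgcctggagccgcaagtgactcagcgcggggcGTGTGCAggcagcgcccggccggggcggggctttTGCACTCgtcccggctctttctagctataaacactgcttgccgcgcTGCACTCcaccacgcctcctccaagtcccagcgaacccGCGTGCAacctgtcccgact
The window of MT1X held 4 matches and that of MT2A held 8. The motif was in 29.6% of 35116 RefSeq promoters. Of the 11 tested genes of the list, 5 had a promoter in the table and 3 of these held the motif, SLC30A1 being the third. The windows end 50 bases after the start, and the matches draw on letters alone.

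HAMP (ENSG00000105697, chr19:35280716-35285143, plus strand), the gene of the iron hormone hepcidin, was expressed at a low level. It had 2.61, 3.24 and 3.86 CPM at 500 µg/mL and 5.38, 4.84 and 5.84 CPM at 20 µg/mL. The ranges did not overlap, and the fall was 0.73 log2 units (SE 0.16, adjusted p = 0.00261), to 0.603 of its level at 20 µg/mL. Of 12 tested members of the BMP-SMAD list 2 were called, both lower, where 2.29% of all genes were. They were HAMP and TFR2, a transferrin receptor that senses iron (-0.19 ± 0.053), and the median of the list was -0.04. ID1, a common readout of BMP signalling, had 81.9, 111 and 89.9 CPM at 500 µg/mL, against 87.2, 92.3 and 99.0 CPM at 20 µg/mL. These ranges overlap, and the change was 0.03 (95% interval -0.15 to 0.21). ID2 (-0.03), ID3 (0.13) and the inhibitor SMAD7 (-0.10) were not called, with intervals of -0.18 to 0.12, -0.08 to 0.34 and -0.26 to 0.07. TFR2 lost its call in 4 of 6 fits that leave out 1 library (highest adjusted p 0.170).

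Among genes of iron transport and storage, 2 of 12 tested were called, both lower, where 2.29% of all genes were called lower. Ferroportin SLC40A1, the iron exporter that hepcidin blocks, had 37.6, 35.1 and 36.0 CPM at 500 µg/mL and 41.7, 47.6 and 45.0 CPM at 20 µg/mL, and fell by 0.30 (SE 0.053). Transferrin TF fell by 0.19 (SE 0.052), a call lost in 3 of 6 fits without 1 library (highest adjusted p 0.145). The transferrin receptor TFRC (-0.08) and the ferritin chains FTL (0.11) and FTH1 (0.18) did not pass. The promoter of HAMP (GRCh38.p14, chr19:35282278-35282577, plus strand) is shown because its change differed between the formulas. Capitals mark GGCGCC, the core of a BMP response element, 105 bases before the start.
HAMP: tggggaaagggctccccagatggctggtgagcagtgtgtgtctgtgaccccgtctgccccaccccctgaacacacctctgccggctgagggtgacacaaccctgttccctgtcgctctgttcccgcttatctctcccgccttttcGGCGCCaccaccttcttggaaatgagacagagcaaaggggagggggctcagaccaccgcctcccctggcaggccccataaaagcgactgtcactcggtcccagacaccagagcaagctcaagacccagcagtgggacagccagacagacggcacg
The letters GGCGCC occur in 19.2% of the 35116 promoters and in 5 of 11 matched promoters of the BMP-SMAD list. They were not found in the windows of ID1 and ID3.

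Single genes of the fasting and insulin axis were called lower at 500 µg/mL. G6PC1, the glucose-6-phosphatase that ends gluconeogenesis (ENSG00000131482, chr17:42900797-42913369, plus strand), had 14.3, 12.8 and 14.6 CPM at 500 µg/mL and 23.2, 23.3 and 20.8 CPM at 20 µg/mL. It fell by 0.70 (SE 0.11, adjusted p = 2.66e-05). On the gluconeogenesis list it was the only called member of 18 tested, and the median was -0.12. With 4.99% called over all genes, this count is no result about the list. PCK1 (-0.20), the other key enzyme of the pathway, PPARGC1A (-0.19) and the FOXO1 target IGFBP1 (-0.20) were not called. DEPP1, a fasting-induced FOXO target, stood at 10.1, 9.28 and 10.5 CPM at 500 µg/mL and at 17.9, 16.5 and 17.9 CPM at 20 µg/mL, a fall of 0.81 (SE 0.13). SGK1, a kinase induced by glucocorticoids and insulin, had 21.6, 21.7 and 21.4 CPM at 500 µg/mL and 30.5, 29.3 and 32.4 CPM at 20 µg/mL, a fall of 0.51 (SE 0.079). All 3 libraries at 500 µg/mL lay below those at 20 µg/mL in each of these genes. The 2 called members of the glucocorticoid list, of 11 tested, were SGK1 and MT2A, where 2.29% of all genes were called lower. FKBP5 (0.14) and TSC22D3 (0.12), usual markers of the glucocorticoid response, were not called.

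Genes of lipid synthesis were lower by small amounts. On the fatty acid and triglyceride list 8 of 19 tested were called lower, where 2.29% of all genes were, and none higher. The median was -0.12, and 5 to 8 were called under the alternatives. ACSS2, which makes acetyl-CoA from acetate, had 118, 119 and 114 CPM at 500 µg/mL and 156, 167 and 163 CPM at 20 µg/mL. Its ranges were apart, and it fell by 0.47 (SE 0.039, adjusted p = 2.52e-12). PNPLA3, a lipid droplet protein (-0.37), and FADS2, a fatty acid desaturase (-0.25), also fell and were called in every fit tried. GPAM (-0.23), LPIN1 (-0.21), SCD (-0.16), FADS1 (-0.13) and ACLY (-0.12) made up the rest, and LPIN1 was not called without replicate 1 at 500 µg/mL (highest adjusted p 0.0557). Fatty acid synthase FASN (-0.11) and SREBF1 (-0.05), the regulator of this pathway, were not called.

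All 20 tested genes of the cholesterol list had a negative change, with a median of -0.15, and 6 were called lower. Over all genes 8140 changes were negative and 8007 positive, and 2.29% of genes were called lower. LSS, which closes the sterol ring, stood at 202, 237 and 222 CPM at 500 µg/mL and at 270, 273 and 289 CPM at 20 µg/mL, and fell by 0.33 (SE 0.062). HSD17B7, a sterol reductase of the later steps, had 39.0, 43.1 and 42.8 CPM at 500 µg/mL and 48.1, 48.0 and 51.7 CPM at 20 µg/mL, and fell by 0.24 (SE 0.065). TM7SF2 (-0.33), MVD (-0.27), MVK (-0.21) and FDPS (-0.17) were the other called members. SREBF2 (-0.11), which drives these genes, was not called. In LSS and HSD17B7 the library of replicate 1 at 500 µg/mL was the lowest of the 6. Without it HSD17B7 and FDPS were no longer called, nor was HSD17B7 without replicate 3 at 20 µg/mL (highest adjusted p over the alternatives 0.136 and 0.0868). The count on the list ranged from 2, with only the libraries of the set in the fit or without replicate 1 at 500 µg/mL, to 10 with DESeq2. Of 17 tested genes of fatty acid oxidation, PPARA itself (-0.24) and ACOT1 (-0.32) were lower and ACADVL (0.17) was higher, where 4.99% of all genes were called. ACADVL lost its call in 4 of 6 fits without 1 library (highest adjusted p over the alternatives 0.120). ACOT1 has a close copy in ACOT2, its libraries were wide (12.1 to 18 CPM at 500 µg/mL, 18.4 to 19.3 CPM at 20 µg/mL), and its call was lost in 5 of 6 fits without 1 library.

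Genes of growth were higher by small amounts. On the nucleolar ribosome biogenesis list all 21 tested genes had a positive change, 13 were called higher and the median was 0.22. Over all genes 8007 changes were positive and 8140 negative, and 2.70% of genes were called higher. NOP2, a ribosomal RNA methyltransferase, had 119, 101 and 115 CPM at 500 µg/mL and 94.0, 94.4 and 88.5 CPM at 20 µg/mL. It rose by 0.27 (SE 0.048). RRP9, which processes ribosomal RNA, stood at 31.6, 32.2 and 33.1 CPM at 500 µg/mL and at 26.9, 25.7 and 26.3 CPM at 20 µg/mL, and rose by 0.30 (SE 0.059). PES1 (0.25), WDR12 (0.24) and NOLC1 (0.22) rose and were called in every fit tried. MYC, which drives these genes, rose by 0.25, a call lost without replicate 3 at 500 µg/mL or replicate 1 at 20 µg/mL (highest adjusted p 0.11). The list gave 7 to 15 calls over the alternatives. Of 54 cytosolic ribosomal proteins, 53 had a positive change with a median of 0.09, but only RPL6 was called (0.15), and 4 fits without 1 library lost it. Many of these genes have processed pseudogenes with which reads may be shared.

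Genes of cell division had small positive changes. All 27 tested mitosis genes and all 29 tested DNA replication genes had positive changes, with medians of 0.15 and 0.14, and 8 and 5 of them were called. Over all genes 8007 changes were positive and 8140 negative, and 2.70% of genes were called higher. The mitotic kinase AURKA had 275, 239 and 264 CPM at 500 µg/mL and 204, 219 and 215 CPM at 20 µg/mL, and rose by 0.28 (SE 0.055). The kinesin KIF20A stood at 103, 89.6 and 96.8 CPM at 500 µg/mL and at 82.4, 78.5 and 77.9 CPM at 20 µg/mL, and rose by 0.28 (SE 0.053). Both kept their libraries apart and their calls in every fit tried. PLK1 (0.24), CDC20 (0.23), CCNB1 (0.22), BUB1 (0.22), TPX2 (0.18) and KIF23 (0.26) were also called. On the replication list CDC45 (0.27), RRM1 (0.20), MCM4 (0.19), RRM2 (0.17) and CDC6 (0.15) were called, and MKI67 (0.20), PCNA (0.04) and CDK1 (0.02) were not called. KIF23, CDC45 and MCM4 lost their calls in 3, 4 and 2 of the fits that leave out 1 library (highest adjusted p 0.165, 0.136 and 0.124). Leaving out 1 library gave 3 to 9 calls on the mitosis list and 2 to 5 on the replication list. With only the 18 libraries of the set in the fit no replication gene was called by edgeR, while 15 had an unadjusted p under 0.05 in the fit of all libraries and DESeq2 called 5. TP53INP1, an autophagy and cell death regulator, was the only called member of 20 tested p53 targets, with 26.8, 29.9 and 26.3 CPM at 500 µg/mL and 36.7, 36.9 and 40.4 CPM at 20 µg/mL, a fall of 0.45 (SE 0.054). CDKN1A (-0.05) and MDM2 (-0.04) were not called. With 4.99% called over all genes, 1 call among 20 is no result about the p53 list. In whole cultures more cells in division and more RNA per cell cannot be told apart.

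Some inflammatory and immediate early genes were higher. On the NF-kB list 4 of 14 tested were called, all higher, where 2.70% of all genes were, and the median was 0.15. They were IER3 (0.33 ± 0.075), an early response gene, the adhesion molecule ICAM1 (0.17 ± 0.048), the chemokine CCL20 (0.33 ± 0.099) and the apoptosis inhibitor BIRC3 (0.48 ± 0.12). IER3 had 67.4, 62.4 and 57.9 CPM at 500 µg/mL, all above the 48.5, 48.9 and 51.9 CPM at 20 µg/mL. NFKBIA (-0.10) and TNFAIP3 (-0.06), the feedback inhibitors of the pathway, were not called, and neither was CXCL8 (0.27). EGR1 (0.34), JUN (0.26) and MYC were the called members of 20 tested early genes, all higher, where 2.70% of all genes were. EGR1 and JUN lost their calls in 4 and 5 of 6 fits without 1 library (highest adjusted p 0.233 and 0.183). Leaving out 1 library gave 0 to 2 calls on the early list, with 0 without replicate 1 at 20 µg/mL. It gave 1 or 2 calls on the NF-kB list, with 1 without replicate 1 at 500 µg/mL or replicate 3 at 20 µg/mL (highest adjusted p 0.0511 for IER3, 0.132 for ICAM1 and 0.146 for BIRC3 over all alternatives), and CCL20 lost its call in each of 6 fits without 1 library (highest adjusted p 0.148).

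Several plasma proteins of the liver were lower. Of 35 tested, 9 were called lower and none higher, where 2.29% and 2.70% of all genes were, and the median was -0.10. Over the alternatives 5 to 10 were called lower and 0 to 2 higher, with 2 higher by DESeq2 and with the replicate block. The list does not hold MBL2, which was called higher (0.61). ITIH3, which links to hyaluronan, had 94.0, 88.7 and 89.3 CPM at 500 µg/mL and 130, 128 and 124 CPM at 20 µg/mL, and fell by 0.49 (SE 0.053, adjusted p = 8.92e-09). ITIH1 of the same family (-0.52 ± 0.078) had 9.09 to 10.8 CPM at 500 µg/mL and 13.9 to 14.6 CPM at 20 µg/mL. TTR, the carrier of thyroid hormone, stood at 142, 152 and 135 CPM at 500 µg/mL and at 189, 185 and 187 CPM at 20 µg/mL, a fall of 0.38 (SE 0.060). Every library of these genes at 500 µg/mL was below every library at 20 µg/mL. KNG1 (-0.46), complement C5 (-0.27), AHSG (-0.26), complement factor B CFB (-0.23), albumin ALB (-0.22) and TF (-0.19) were the others. ALB lost its call in 5 of 6 fits without 1 library (highest adjusted p 0.180). SERPINA1 (-0.01), AFP (0.00) and the fibrinogen chains FGA (-0.12), FGB (0.02) and FGG (-0.05) were not called. Of 18 hepatocyte transcription factors and 14 apolipoproteins and assembly factors none was called by edgeR's fit of all libraries or by DESeq2. On each list 3 had an unadjusted p under 0.05. Over all genes 4.99% were called, and 2845 of 16167 had an unadjusted p under 0.05. These counts are thus no result about the lists. With the replicate block 1 of each was called lower, and of the apolipoprotein list 2 were lower without the filter on low counts and 1 in the fit of the 6 libraries compared.

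**Figure D3:**
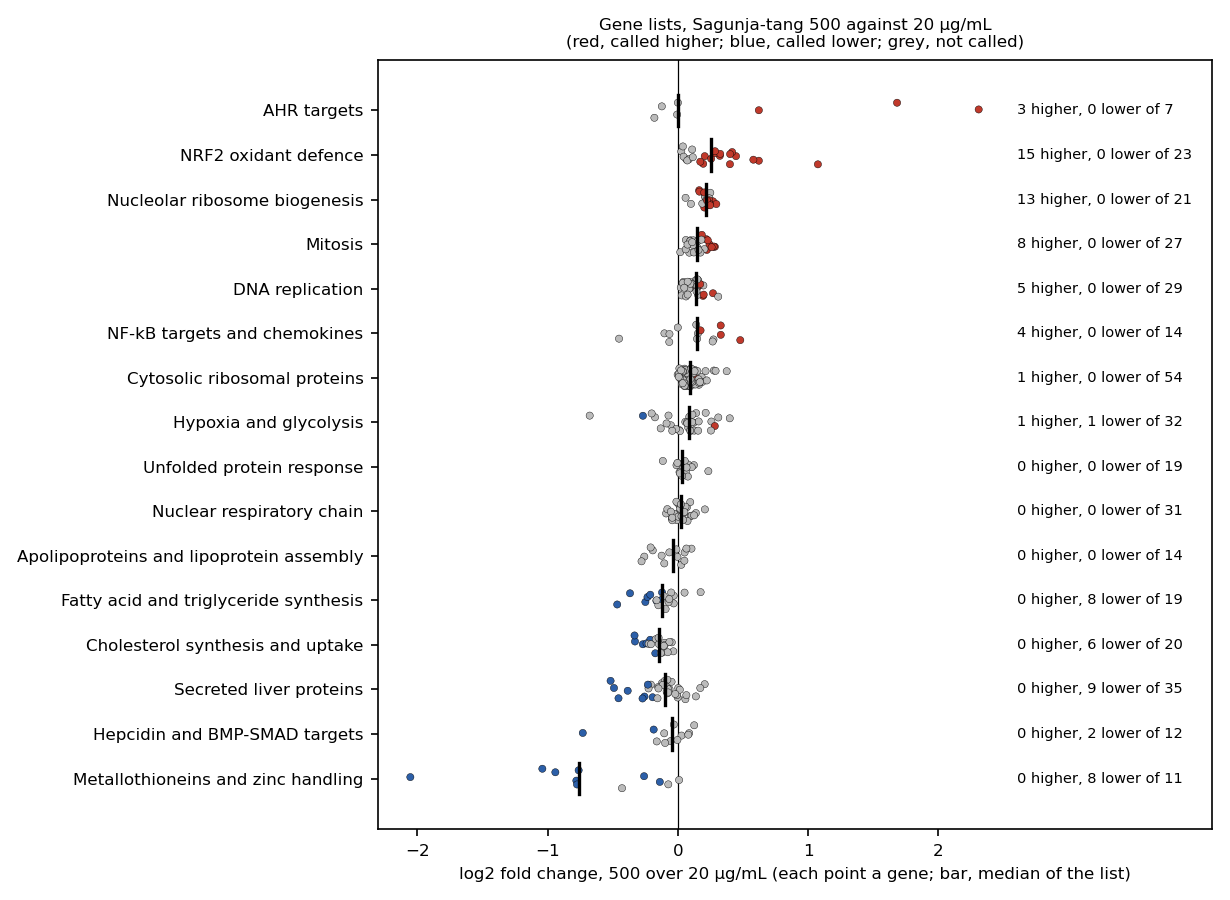
Log2 fold change of Sagunja-tang 500 over 20 µg/mL (horizontal axis) for the tested members of 16 gene lists (rows), where each point is a gene, the bar is the list's median and the counts of called members stand at the right. Among AHR targets CYP1A1 and ALDH3A1 lie far to the right, NRF2 and ribosome biogenesis genes lie to the right of 0, and 8 of 11 metallothionein and zinc genes are called lower.

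The remaining genes with the largest changes had varied roles. CPLX2, a complexin of vesicle fusion (ENSG00000145920, chr5:175796310-175884020, plus strand), had 229, 233 and 245 CPM at 500 µg/mL and 148, 153 and 144 CPM at 20 µg/mL. It rose by 0.67 ± 0.055 (adjusted p = 1.77e-12). MBL2, the mannose-binding lectin of innate immunity, stood at 51.5, 47.4 and 51.6 CPM at 500 µg/mL and at 34.2, 32.5 and 31.7 CPM at 20 µg/mL, a rise of 0.61 ± 0.068. SLC1A2, a glutamate transporter, had 30.3, 29.4 and 30.9 CPM at 500 µg/mL and 47.5, 46.8 and 47.8 CPM at 20 µg/mL, and fell by 0.65 (SE 0.075). The libraries of these genes did not overlap, which the rule that names the 24 genes with the largest changes requires. Genes of 1 to 8 CPM that rose were MYOF, a ferlin of membrane repair (0.96 ± 0.20), the actin ACTA1 (0.79 ± 0.13), TEX19 (0.73 ± 0.14), GLIPR1 (0.73 ± 0.14) and the water and glycerol channel AQP3 (0.63 ± 0.15). EXOC3L4 (-0.71 ± 0.14), the chemokine-scavenging receptor ACKR2 (-0.69 ± 0.16) and the G protein subunit GNG7 (-0.63 ± 0.11) fell at similar levels. AQP3 was not called without replicate 3 at 20 µg/mL (highest adjusted p 0.0988), and ACKR2 not without replicate 2 at 500 or at 20 µg/mL (0.0860). The other 22 of the 24 genes with the largest changes were called in every fit tried. Among genes marking other cell types CD68 was called higher (0.46), a call lost without replicate 1 at 500 µg/mL (highest adjusted p 0.112), and PDGFRB (-0.55) and ACTA2 (-0.23) were called lower.

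The counts on the next lists stand beside the 4.99% called over all genes. None or a few calls on a list of this size is thus no result about the list. Over all genes 2845 of 16167 had an unadjusted p under 0.05 between 500 and 20 µg/mL. No member of the unfolded protein response list was called by edgeR or DESeq2 (0 of 19), with 3 at an unadjusted p under 0.05. The same held for the respiratory chain subunits of nuclear origin (0 of 31, with 1 at an unadjusted p under 0.05) and, in the fit of all libraries and by DESeq2, for the mitochondrial genome (0 of 13, with none), where edgeR without the filter on low counts called 2 lower. On the hypoxia and glycolysis list only HK2 (0.28) and ALDOC (-0.27) of 32 tested were called, and CA9 (-0.68) and VEGFA (0.01) were not. On the amino acid response list of ATF4 the tRNA synthetases WARS1 (0.25) and GARS1 (0.17) were higher and PSPH (-0.23) and NUPR1 (-0.41) lower, of 25 tested. ASNS (-0.01), DDIT3 (-0.03) and TRIB3 (-0.07) were not called. Of 18 chaperones only HSPA4 (0.15) was called. On the sugar-sensing list GPD1 (0.45 ± 0.072), which links glycolysis to triglycerides, was called, and TXNIP (0.01), the main target of glucose sensors, was not. ULK1 (-0.32) and WIPI1 (-0.24), which start autophagy, and the protease CTSD (-0.23) were lower, while the autophagy receptor SQSTM1 (0.23), also an NRF2 target, and GLA (0.25) were higher. CCN2 (-0.30) and CRIM1 (-0.15) were the called members of 14 YAP targets. In at least 1 fit without a library the calls of HK2, ALDOC, GARS1, PSPH, NUPR1, HSPA4, GLA, CCN2 and CRIM1 were lost, with a highest adjusted p between 0.0649 (NUPR1) and 0.367 (HSPA4).

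For each of the 24 genes with the largest changes the mean at 100 µg/mL fell between the means at 20 and 500 µg/mL. It did not for AKR1C2 (means of 154, 146 and 230 CPM at 20, 100 and 500 µg/mL), NUPR1 (10.4, 10.9 and 7.84 CPM) and SQSTM1 (168, 167 and 196 CPM). The 24 genes were picked for a wide gap between 20 and 500 µg/mL, which favours a mean in between. The share over all genes is not given here. CYP1A1 averaged 11.3 ± 0.18 CPM at 20 µg/mL, 14.7 ± 0.47 CPM at 100 µg/mL and 56.0 ± 3.4 CPM at 500 µg/mL (SD, n = 3 each). The upper step of 1.93 ± 0.091 was called (adjusted p = 2.13e-21), and the lower step of 0.38 ± 0.10 was not (adjusted p = 0.410). MT1F averaged 46.8 ± 2.7, 41.8 ± 3.8 and 22.8 ± 1.0 CPM at 20, 100 and 500 µg/mL. DEPP1 averaged 17.4 ± 0.83, 12.5 ± 0.082 and 9.97 ± 0.63 CPM, with a lower step of -0.48 ± 0.13 and an upper step of -0.33 ± 0.14, neither of them called. Whether the steps of a gene differ in size was not tested. Of the 12 genes with the largest rises the upper step was the larger in 11, and of the 12 with the largest falls in 9.

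Between 500 and 100 µg/mL 77 genes were called, which is 0.476% of those tested, with 36 higher (0.223%) and 41 lower (0.254%). Between 100 and 20 µg/mL 3 genes were called (0.0186%), all lower at 100 µg/mL, and DESeq2 called 10. Of 16167 genes tested, 640 had an unadjusted p under 0.05, which genes without any difference would pass at a rate of 0.05. The 3 called genes were TP53INP1 (-0.29 ± 0.053), the activin-binding protein FST (-0.31 ± 0.052) and ACSM3 (-0.28 ± 0.056), an acyl-CoA synthetase. Of these, FST and ACSM3 were chosen after their values were seen. The comparisons share libraries with that of 500 against 20 µg/mL.

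Samul-tang, measured in the same set with libraries of its own, changed 1597 genes between 500 and 20 µg/mL, or 9.88% of those tested. Of the 807 genes called with Sagunja-tang, 304 were also called with Samul-tang, which is 37.7% of the Sagunja-tang calls and 19% of the Samul-tang calls. Of these, 299 moved in the same direction. CYP1A1 rose by 2.31 with Sagunja-tang and by 2.36 with Samul-tang, a difference of -0.05 (95% interval -0.32 to 0.21). ALDH3A1 rose by 1.68 with Sagunja-tang and 1.37 with Samul-tang, a difference of 0.31 (-0.24 to 0.86). NQO1 rose by 0.62 with Sagunja-tang and 0.53 with Samul-tang, a difference of 0.09 (-0.05 to 0.23). MT1G changed by -0.94 with Sagunja-tang and -0.93 with Samul-tang, a difference of -0.01 (-0.33 to 0.30), and G6PC1 by -0.70 with Sagunja-tang and -0.71 with Samul-tang, a difference of 0.01 (-0.30 to 0.32). None of these differences passed the test, and the intervals, which all include equal change, bound how far the formulas may be apart. Some others among the largest changes had intervals that exclude it, though these differences were not called. Higher for Sagunja-tang were AKR1B10 (0.32, 0.13 to 0.51), GLIPR1 (0.61, 0.21 to 1.01) and TEX19 (0.48, 0.07 to 0.90). Lower were ACKR2 (-0.73, -1.18 to -0.28), GNG7 (-0.44, -0.75 to -0.13) and MT1X (-0.31, -0.60 to -0.01). The intervals of MYOF, UGT1A1, ACTA1, AQP3, MBL2, MT1F, DEPP1, MT1E, MT2A, EXOC3L4 and SLC1A2 included it.

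The change between doses differed between the formulas in 23 genes, or 0.142% of those tested, with 18 higher (0.111%) and 5 lower (0.0309%) for Sagunja-tang. HAMP showed the largest difference among the named ones. With Samul-tang it had 0.466, 0.375 and 0.397 CPM at 500 µg/mL and 3.69, 6.53 and 4.88 CPM at 20 µg/mL, a change of -3.60. With Sagunja-tang the change was -0.73, and the difference of 2.87 ± 0.30 was called (adjusted p = 1.14e-08). Other BMP-SMAD targets were among the 23 genes. ID3 had 15.2, 17.6 and 16.7 CPM with Sagunja-tang at 500 µg/mL and 16.2, 15.1 and 14.1 CPM at 20 µg/mL, but 3.69, 5.15 and 3.71 CPM with Samul-tang at 500 µg/mL and 13.4, 19.5 and 14.8 CPM at 20 µg/mL. The difference was 2.07 ± 0.17 (adjusted p = 2.45e-12). ID1 differed by 1.32 ± 0.13, ID2 by 0.78 ± 0.11 and SMAD7 by 0.74 ± 0.12, and 5 of the 12 tested members of this list were among the 23 genes.

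CPLX2 rose by 0.67 with Sagunja-tang and by 0.17 with Samul-tang, a difference of 0.49 ± 0.078 (adjusted p = 0.000201). The others on the lists were IER3 (difference 0.53), ICAM1 (0.29), SPRY4 (0.52), RRP9 (0.40) and the cystine transporter SLC7A11 (-0.45). SLC7A11 rose by 0.51 with Samul-tang and had a change of 0.07 with Sagunja-tang, and SPRY4, an inhibitor of growth factor signalling, fell by 0.41 with Samul-tang and had a change of 0.12 with Sagunja-tang. The differences of HAMP, ID1, ID2 and ID3 were called in every alternative in which they were computed, and the others were lost in part. ICAM1 lost its call in 11 of 18 alternatives, SLC7A11 in 10, IER3 and RRP9 in 7 each, CPLX2 and SPRY4 in 1 each, and SMAD7 in 2 of 17, with an adjusted p of up to 0.783. Replicate 2 of Samul-tang at 20 µg/mL stood apart from the other 17 libraries of the set on the main principal component (41.8). Without it 11 genes differed. Replicate 1 of Sagunja-tang at 500 µg/mL lay at the other end of this component (-19.6), and without that library 27 genes differed.

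**Figure D4:**
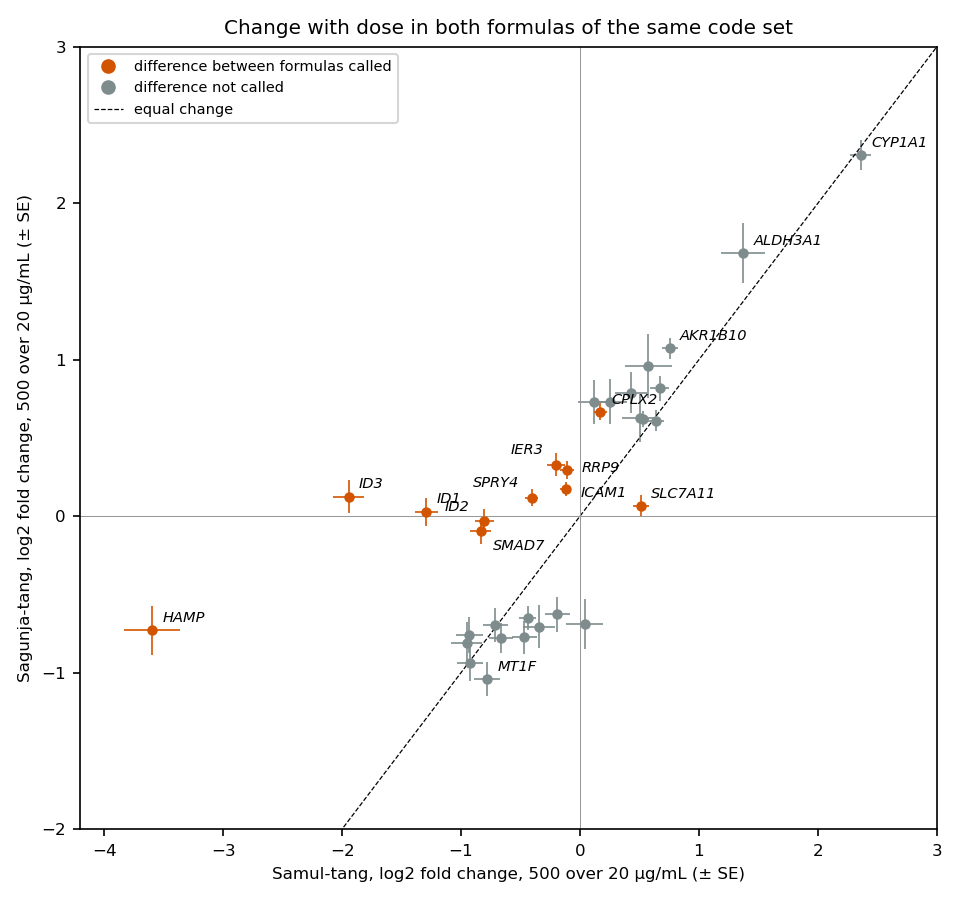
Log2 fold change of 500 over 20 µg/mL ± SE with Sagunja-tang (vertical axis) against that with Samul-tang (horizontal axis), for the 24 genes with the largest changes and list members whose difference was called (orange). CYP1A1 lies on the dashed line of equal change, while HAMP, ID3, ID1, ID2 and SMAD7 lie far to its left.

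The single herbs of the other sets give the span of these responses, though no difference from Sagunja-tang was tested. Between their own doses of 500 and 20 µg/mL, 520 genes were called with Cnidii Rhizoma (3.22%), 109 with Rehmanniae Radix Preparata (0.674%), 10010 with Cinnamomi Cortex (61.9%) and 187 with Astragali Radix (1.16%). CYP1A1 changed by 1.70 with Cinnamomi Cortex and 0.78 with Rehmanniae Radix Preparata, both called, and by 0.11 with Cnidii Rhizoma and 0.08 with Astragali Radix, neither called. AKR1B10 was called higher with all 4, between 0.59 (Astragali Radix) and 2.45 (Cinnamomi Cortex). MT1F was called lower with Cinnamomi Cortex (-3.91), Cnidii Rhizoma (-1.34) and Astragali Radix (-0.69), and not with Rehmanniae Radix Preparata (-0.21). DEPP1 and G6PC1, which were lower at 500 µg/mL of Sagunja-tang, were called higher with Cinnamomi Cortex (2.37 and 1.05). Both were called lower with Cnidii Rhizoma (-0.98 and -0.81) and with Astragali Radix (-1.20 and -0.88). G6PC1 was also called lower (-0.58) for Rehmanniae Radix Preparata, and DEPP1 was not called there (-0.44).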

How the data were processed

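The authors deposited a table of expected counts, estimated reads per gene with no normalisation for depth or length, for 60675 Ensembl genes. The unit was read from the values, of which 8.58% are not whole. Per the submitters' processing notes, FastQC 0.11.9, Trim Galore 0.6.5, STAR 2.7.3a, RSEM 1.3.3 and GRCh38 were used, and the annotation release and the strand setting are not given in the sources used here. Per the labels, a directional kit and 100 bp paired ends were used on RNA with an integrity number above 7. Of 270 columns 60 matched the labels, and 210 were not used. Palmul-tang, with 1 library per dose, was left out of the fit.

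Expected counts were rounded and fitted in R 4.3.3 with edgeR 4.0.16 (TMM factors, filterByExpr, 1 quasi-likelihood model of 57 libraries in 19 groups, common dispersion 0.00312). Contrasts were 500 against 20, 100 against 20 and 500 against 100 µg/mL of Sagunja-tang, and its 500 against 20 minus that of Samul-tang. F tests were two-sided, Benjamini-Hochberg adjusted over 16167 genes, and called under 0.05. CPM values are TMM-scaled, and 500 against 20 µg/mL is proportional to a linear trend over the logarithm of the 3 doses. Names and positions came from GENCODE release 29 and promoters from RefSeq (GRCh38.p14). Named genes are the 12 with the largest change in each direction (adjusted p under 0.05, mean of at least 2 CPM, a symbol, libraries not overlapping), up to 4 called members of each of 38 lists by adjusted p, HAMP, the metallothioneins, and list members with a called difference. Other list members are given to account for a list. The members compared and the lists (747 genes, 677 tested) were chosen with earlier results of these data known. Alternatives were RLE size factors, no low-count filter, the replicate block, smaller fits, DESeq2 1.42.0 and leaving out each library. Intervals of changes are from the fit and counting error for genes with few reads adds to it. Some genes that meet the rule for named genes, or that lie on a list, are not analysed here.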

Additional observations from a re-analysis of the deposited data

Results flagged for a closer look

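A test of the difference between formulas set 11 named genes apart, as the change of 500 over 20 µg/mL of Sagunja-tang minus that of Samul-tang on the log2 scale. Iron and BMP-SMAD genes had the largest values, with HAMP at 2.87, ID3 at 2.07, ID1 at 1.32, ID2 at 0.78 and SMAD7 at 0.74. Sagunja-tang itself changed HAMP by -0.73, and its changes in ID1, ID2, ID3 and SMAD7 did not pass the test. Among early and inflammatory genes IER3 differed by 0.53, SPRY4 by 0.52 and ICAM1 by 0.29. CPLX2 differed by 0.49, RRP9 by 0.40 and SLC7A11 by -0.45, which is the only negative value among these 11. HAMP had under 1 CPM in each of the 3 libraries of Samul-tang at 500 µg/mL, so its difference rests on few reads there.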

How the results depend on the processing

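The 807 calls between 500 and 20 µg/mL were 306 with only the 18 libraries of the set in the fit and 363 with only the compared groups. They were 433 to 762 with 1 library left out (478 without replicate 1 at 500 µg/mL, 437 without replicate 2 and 433 without replicate 3 at 20 µg/mL). RLE size factors gave 802, no filter on low counts 746 and DESeq2 917. The 3 calls between 100 and 20 µg/mL became 97 without the filter, 9 with only the compared groups and 10 by DESeq2. They became 0 by edgeR with only the set, and 0 to 3 with 1 library left out. In the full fit 640 of 16167 genes had an unadjusted p under 0.05 in that comparison. The 77 calls between 500 and 100 µg/mL became 177 without the filter, 29 with only the set, 24 with only the compared groups, 141 by DESeq2 and 37 to 77 with 1 library left out. The 23 differences between formulas became 250 without the filter, 7 with only the set, 5 with only the compared groups, 70 by DESeq2 and 11 to 143 with 1 library left out (84 without replicate 2 of Samul-tang at 500 µg/mL, 109, 11 and 143 without replicates 1, 2 and 3 at 20 µg/mL). The cause of the changes without the filter, with the smaller fits and by DESeq2 was not tested. Same-numbered replicates of Sagunja-tang at 500 and 20 µg/mL deviated with correlations of -0.065 to 0.084, and 1 of 3 correlated best with its own number. For Samul-tang at 500 and 20 µg/mL the same-numbered correlations were 0.054, 0.182 and 0.102, each the highest of its library at 500 µg/mL. Whether the numbers pair the samples is thus not settled, and the main fit treats them as unpaired. A replicate block gave 1057, 6, 134 and 68 calls in the 4 comparisons. No named value changed direction while called. Of 92 called named genes, 51 were called under all 12 alternatives and 34 lost the call in at least 1 fit without a library. Depth limits genes under about 2 CPM, such as MT1M.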
